A study of Mus musculus with 12 samples.

Results

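F-box proteins are the subunits by which SCF ubiquitin ligases (complexes of Skp1, a cullin and an F-box protein) choose the proteins to be marked with ubiquitin. The F-box itself binds Skp1, and the rest of the protein binds the substrate: WD40 repeats in the Fbxw family, leucine-rich repeats in the Fbxl family and other domains in the Fbxo family. In mouse a group of Fbxw genes has expanded in a tandem cluster on chromosome 9, and transcripts of several of them, Fbxw15 among them, are known mainly from oocytes. The genes described here were all entries of the RNA-seq table whose symbol begins with Fbxw, Fbxo or Fbxl followed by a digit, with 1 symbol left out by the rule of choice. They were 76 of 24918 gene entries: 13 oocyte-type genes, numbered between Fbxw13 and Fbxw28, and 63 others, of which 7 were Fbxw, 37 Fbxo and 19 Fbxl entries. Among the 63, Fbxl12os is annotated as a transcribed pseudogene.

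The libraries were made from mouse 2-cell embryos of NSA(CF-1) mothers and B6SJLF1/J fathers. Pronuclear embryos were taken 16 to 20 h after the hormone hCG was given and cultured at 5% oxygen in medium with 50 µM IWR1-endo (IWR1 below), which inhibits tankyrase, or with its solvent DMSO alone. Both groups were harvested 46 h after hCG. The RNA-seq libraries came from 4 collections of 10 pooled embryos per group, while open chromatin was assayed in 2 collections (ATAC-seq) of 100 embryos per group. The labels call the collections independent. All females were superovulated, and each library averages over its pooled embryos. The DMSO libraries are numbered 1 to 4 and the IWR1 libraries 5 to 8, as the columns of the table number them.

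Total counts ran from 16606155 to 49672143 in DMSO and from 17963977 to 32931800 in IWR1. Of the genes entered in the test, 14994 in all, 3494 (23.3%) were called higher in IWR1 and 3803 (25.4%) lower, at an adjusted p under 0.05, and the median log2 fold change was 0.17. Markers of the early 2-cell stage were present and 6 of 7 rose, with summed levels of 453 to 654 FPKM in DMSO and 1280 to 2126 in IWR1. Of 10 cumulus and granulosa markers 4 entered the test, of which 1 rose and 1 fell. Amh and Inhba had no count in any library, and the list summed to 23.1 to 36.1 FPKM in DMSO and 15.8 to 22.6 in IWR1. Amhr2, the member that fell, supplied most of this sum, and without it the range was 2.68 to 4.54 FPKM in DMSO and 5.65 to 11.3 in IWR1. Of 6 sperm and testis markers 5 were tested and 3 rose, from sums of 0.678 to 3.13 to sums of 13.1 to 28.9 FPKM. Among macrophage markers Ptprc had no count, Csf1r was at 0 in 7 of the 8 libraries, and 2 of 2 tested (Cd68 and Lyz2) rose.

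In the reference table, 12 of the 13 oocyte-type genes lie on chromosome 9 between 109139454 and 109746089 (mm10), a span of 606.6 kb with no other protein-coding gene in it. The gene Fbxw17 is apart from these, on chromosome 13 from 50417835 to 50433781. The reference holds 15 such genes on chromosome 9; those beyond the 12 are not analysed here. Promoter windows of 300 bases (250 before and 50 after the start of the gene, RefSeq, GRCm38.p6) were at hand for 57 of the 76 genes and for 10 of the 12 cluster genes, all 10 on the minus strand. The stretches below are the 150 bases before the start that each window is built on, for 3 cluster genes, then Fbxw17 and, from the other families, Fbxo5. For Fbxw17 that start lies inside the gene's boundary given above. Capitals mark the E-box CAGCTG, the A- and T-rich letters TTTAAA, and the GC box letters GGGCGG, each searched on both strands.
Fbxw24, chr9:109626060-109626209, minus strand: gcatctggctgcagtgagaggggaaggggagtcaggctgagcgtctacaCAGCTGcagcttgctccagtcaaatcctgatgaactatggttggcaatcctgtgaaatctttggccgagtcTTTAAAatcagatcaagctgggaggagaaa
Fbxw28, chr9:109339660-109339809, minus strand: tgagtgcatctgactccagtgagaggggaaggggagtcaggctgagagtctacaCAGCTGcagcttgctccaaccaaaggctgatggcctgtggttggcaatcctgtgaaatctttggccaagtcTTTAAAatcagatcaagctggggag
Fbxw18, chr9:109702701-109702850, minus strand: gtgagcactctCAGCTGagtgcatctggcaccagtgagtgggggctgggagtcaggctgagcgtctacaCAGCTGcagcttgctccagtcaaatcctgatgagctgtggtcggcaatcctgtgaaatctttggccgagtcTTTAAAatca
Fbxw17, chr13:50417714-50417863, plus strand: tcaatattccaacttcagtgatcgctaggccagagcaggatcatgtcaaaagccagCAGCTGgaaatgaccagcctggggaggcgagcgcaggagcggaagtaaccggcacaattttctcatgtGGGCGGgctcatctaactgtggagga
Fbxo5, chr10:5805466-5805615, minus strand: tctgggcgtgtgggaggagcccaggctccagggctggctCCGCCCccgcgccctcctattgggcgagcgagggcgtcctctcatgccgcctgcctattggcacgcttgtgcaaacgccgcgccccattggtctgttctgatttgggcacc

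The cluster windows were close copies of each other. Over the 45 pairs among 10 windows, identity in global alignments ran from 75.9% to 97.3% with a median of 89.7%. Alignments to the Fbxw17 window gave 44.3% to 50.8%, and those to 46 windows of the other F-box genes gave 39.4% to 51.5%. The motif CAGCTG was in 10 of 10 cluster windows, against 16.1% of 27025 windows of all genes and 19.6% of the 46. TTTAAA was in 9 of 10, Fbxw20 being the exception, against 13.2% of all windows and 17.4% of the 46. GGGCGG was in 1 of 10 (Fbxw18, outside the stretch shown), against 35.9% of all windows and 69.6% of the 46. The TATA box TATAAA was in 0 of 10, against 14.2% of all. The homeobox motif TAATTG was also in 0 of 10, against 8.2% of all. Since the cluster windows are copies, these counts are not 10 separate observations, and the motifs were chosen after the sequences were seen. The longest run shared by all 10 was aaatctttggcc, which 12 of the 27025 windows hold.

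The cluster genes are tandem copies, with counted lengths of 1462 to 1839 bases, and the sources used here do not say how reads that match several copies were assigned. Each cluster gene's level is therefore uncertain with respect to its neighbours. Reads without a stated strand also leave, among the genes called, Fbxl13, Fbxl14, Fbxl21, Fbxl22, Fbxo11, Fbxo15, Fbxo36, Fbxo6, Fbxw4 and Fbxw9 uncertain, whose positions overlap those of other counted genes. Levels are given as FPKM, fragments scaled by gene length and library size, computed from the counts and scaled between libraries by TMM (trimmed mean of M-values). Such levels do not tell fewer transcripts per embryo from a larger total of other RNA, nor RNA left from the oocyte from RNA made by the embryo.

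Most of the oocyte-type genes were among the more abundant F-box transcripts, Fbxw17 being near 0, and their estimates lay mostly above 0 in IWR1, but few passed the test. Fbxw13 and Fbxw24 were called higher, 2 of 13, and 0 were called lower, beside 23.3% and 25.4% of all genes. By edgeR at an unadjusted p under 0.05 the counts were 6 higher and 0 lower, beside 27.3% and 27.7% of all genes. DESeq2 called 6 higher and 0 lower, beside 27.5% and 26.1% of all genes. With genes of at least 5 FPKM only, edgeR called 8 of 12 higher and 0 lower, beside 34.8% and 37% of all genes. In that fit TMM was also computed anew on the genes kept, so it is another scaling as well as another filter. The log2 fold change of Fbxw24 went from 0.61 to 0.84, that of Fbxw18 from -0.03 to 0.20 and that of Fbxo15 from -1.77 to -1.53. The median log2 fold change over the 13 genes was 0.60, with 12 of 13 above 0, beside 0.17 over all genes. Groups that do not overlap were seen for 1 of the 13, Fbxw13, with all 4 IWR1 libraries above all 4 DMSO libraries, as was so for 24.4% of all genes; 0 lay below, as did 25.1% of all.

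Fbxw24 was the most abundant of the cluster in every library. It stood at 676, 537, 605 and 429 FPKM in DMSO libraries 1 to 4 and at 1215, 845, 657 and 722 FPKM in IWR1 libraries 5 to 8. IWR1 library 5 was high, IWR1 library 7 lay below DMSO library 1, and the groups overlapped. The means were 562 ± 105 and 860 ± 249 FPKM (SD, n = 4 each), a log2 fold change of 0.61 (SE 0.22, adjusted p = 0.0383). It supplied 30.3% to 36.4% of the cluster's summed FPKM in DMSO and 34.9% to 36.7% in IWR1. The call was lost when DMSO library 2 (adjusted p = 0.0858), DMSO library 4 (0.0709), IWR1 library 5 (0.114) or IWR1 library 6 (0.0710) was left out, and with libraries centred on the median gene 0.0506.

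Fbxw13 was the least abundant of the cluster. Its levels were 16.1, 12.2, 7.41 and 7.83 FPKM in DMSO libraries 1 to 4 and 23.8, 19.4, 16.2 and 19.6 FPKM in IWR1 libraries 5 to 8. The groups touched without overlapping, since IWR1 library 7 lay just above DMSO library 1. From 10.9 ± 4.09 to 19.8 ± 3.14 FPKM (SD, n = 4 each), the log2 fold change was 0.87 (SE 0.28, adjusted p = 0.0233). Its call was lost without DMSO library 3 (adjusted p = 0.0595), DMSO library 4 (0.0512) or IWR1 library 5 (0.0626).

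**Figure D1:**
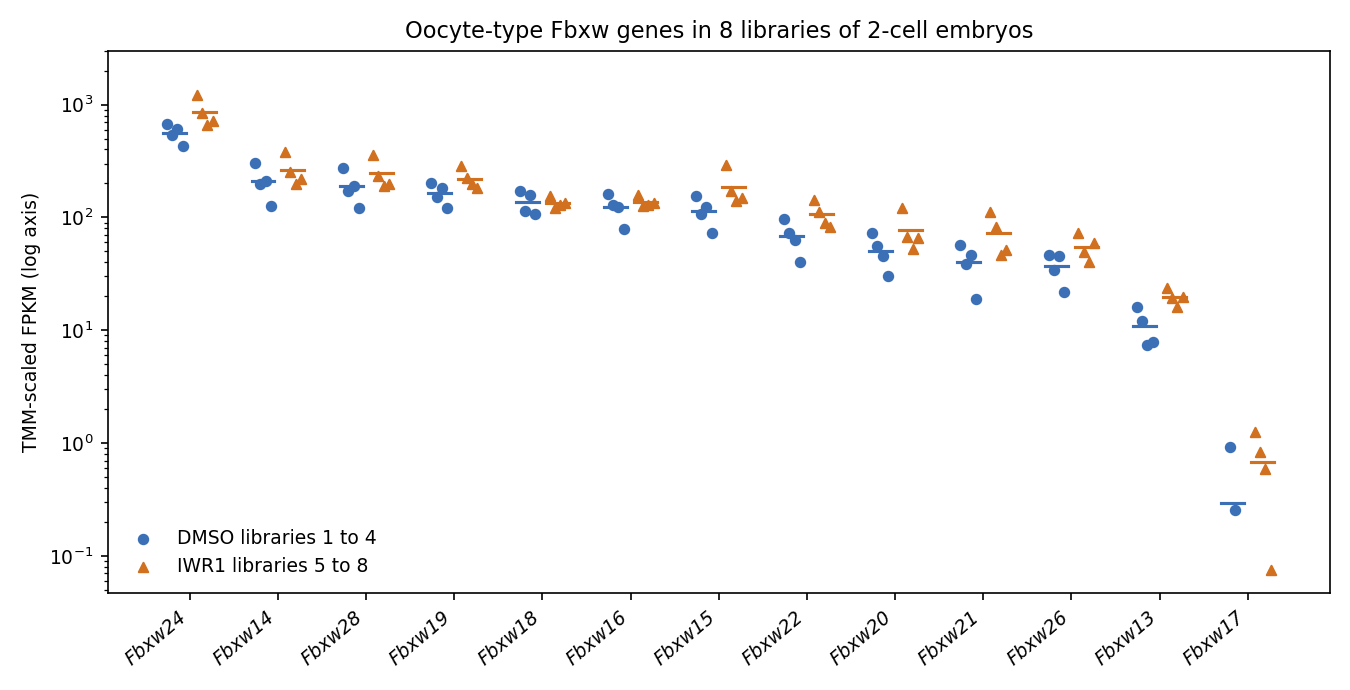
TMM-scaled FPKM (log axis) of the 13 oocyte-type Fbxw genes in 4 DMSO libraries (circles) and 4 IWR1 libraries (triangles), with a bar at each group's mean; genes are ordered by DMSO mean, with Fbxw17 last. DMSO libraries 1 and 4 are at 0 for Fbxw17 and are not drawn. The groups overlap for every gene but Fbxw13.

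The other cluster genes did not pass the test. Fbxw15 had 155, 108, 123 and 72.5 FPKM in DMSO libraries 1 to 4, and 291, 170, 139 and 147 FPKM in IWR1 libraries 5 to 8. Its log2 fold change of 0.71 (SE 0.28) had an adjusted p of 0.0509, and DMSO library 1 lay above IWR1 libraries 7 and 8. Fbxw21 showed 57.0, 38.6, 46.1 and 18.9 FPKM in DMSO and 113, 82.9, 46.1 and 51.5 FPKM in IWR1. IWR1 libraries 5 and 6 were the highest of its 8 values and DMSO library 4 the lowest, with a log2 fold change of 0.87 (SE 0.35, adjusted p = 0.0552).

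For Fbxw22 the values were 97.4, 72.7, 63.0 and 40.7 FPKM in DMSO and 142, 111, 90.0 and 81.5 FPKM in IWR1 (log2 fold change 0.63, adjusted p = 0.0634). Fbxw20 read 72.3, 55.3, 45.9 and 30.0 FPKM in DMSO and 121, 67.5, 52.6 and 66.3 FPKM in IWR1 (0.60, adjusted p = 0.121). Fbxw26 read 46.4, 34.4, 45.3 and 21.7 FPKM in DMSO and 72.1, 49.3, 40.1 and 59.0 FPKM in IWR1 (0.58, adjusted p = 0.0868). In each of these 3 genes IWR1 library 5 was the highest value and DMSO library 4 the lowest.

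The abundant copies Fbxw14, Fbxw28 and Fbxw19 had smaller estimates, of 0.33, 0.38 and 0.42 (adjusted p = 0.347, 0.255 and 0.109). Fbxw14 stood at 305, 198, 210 and 126 FPKM in DMSO and 383, 255, 197 and 218 FPKM in IWR1. Fbxw28, whose window is 97.3% identical to that of Fbxw14, stood at 272, 172, 190 and 122 FPKM in DMSO and 360, 234, 191 and 199 FPKM in IWR1. Fbxw19 had 202, 153, 183 and 122 FPKM in DMSO and 285, 221, 196 and 181 FPKM in IWR1. In these 3 genes DMSO library 1 was above at least 2 IWR1 libraries.

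Fbxw16 and Fbxw18 had the smallest estimates of the cluster. Fbxw16 read 160, 128, 125 and 79.1 FPKM in DMSO and 158, 126, 130 and 134 FPKM in IWR1, a log2 fold change of 0.16 with a 95% interval from -0.30 to 0.61. Fbxw18 read 170, 113, 158 and 108 FPKM in DMSO and 153, 121, 129 and 134 FPKM in IWR1, a log2 fold change of -0.03 with an interval from -0.44 to 0.38. The sign for Fbxw18 turned under other scalings of the libraries. Fbxw17, off the cluster, was at 0, 0.924, 0.256 and 0 FPKM in DMSO and 1.24, 0.826, 0.584 and 0.0758 FPKM in IWR1. Its interval, from -1.89 to 4.32 on the log2 scale, leaves its difference undetermined. The counts were 0, 32, 19 and 0 in DMSO and 40, 53, 23 and 4 in IWR1, with 0 in the deepest library, DMSO library 4.

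The cluster genes moved together from library to library within each group. DMSO library 1 held the highest DMSO value of 12 of the 12 genes, where it did so for 21.4% of all genes tested, and DMSO library 4 held the lowest of 11 of the 12, against 28.9% of all. IWR1 library 5 held the highest IWR1 value of 12 of 12, against 30.7% of all genes. Since these genes are copies and the assignment of shared reads is not known, the 12 are not separate observations. The median deviation of the 12 genes from their own means over 8 libraries was 0.21, -0.26, -0.13 and -0.85 (log2) in DMSO libraries 1 to 4 and 0.78, 0.21, -0.06 and 0.05 in IWR1 libraries 5 to 8. The difference between the groups thus had its largest parts in DMSO library 4 and IWR1 library 5. With both left out, an alternative chosen after these values were seen, 0 of the 13 oocyte-type genes were called higher, beside 2891 of 15116 genes in all. Their median was 0.24 beside 0.13 over all genes. Fbxw24 and Fbxw13 had log2 fold changes of 0.29 and 0.64 (edgeR adjusted p = 0.195 and 0.113). Both libraries were picked by these genes' own values, so smaller estimates followed from the choice.

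**Figure D2:**
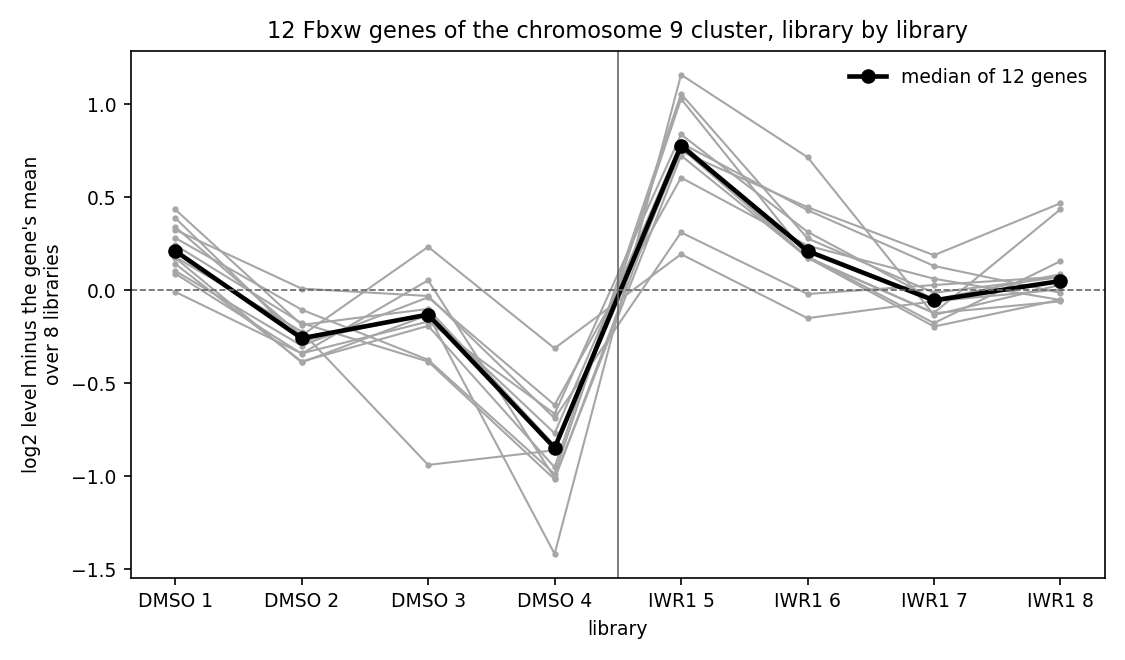
Log2 level of each of the 12 cluster genes minus the gene's own mean over 8 libraries (grey lines, one per gene) and the median of the 12 (black). The median is lowest in DMSO library 4, at -0.85, and highest in IWR1 library 5, at 0.78; DMSO library 1 and IWR1 library 6 are both at 0.21.

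Of 10 oocyte markers 7 rose (Bmp15, Gdf9, Nobox, Oosp1, Sohlh1, Zp1 and Zp2) and 1 fell (Zp3), beside 23.3% and 25.4% of all genes. The list summed to 2060, 1942, 2680 and 1511 FPKM in DMSO libraries 1 to 4 and 5783, 4727, 3533 and 3970 FPKM in IWR1 libraries 5 to 8. The lowest DMSO sum was in library 4 and the highest IWR1 sum in library 5, as for the cluster, but the highest DMSO sum was in library 3 and not in library 1. Oosp1 supplied most of these sums. Without it they were 517, 534, 470 and 306 FPKM in DMSO and 908, 955, 601 and 669 FPKM in IWR1, with the lowest again in DMSO library 4 and the highest in IWR1 library 6. The part of this in the Fbxw values was not tested.

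Along the cluster there was no gene at which the estimates changed sign by their intervals. Fbxw21 and Fbxw13, at the low-coordinate end, had the largest estimates (0.87 each), and Fbxw18 and Fbxw16 the smallest. Levels ran from a DMSO mean of 10.9 FPKM for Fbxw13 to 562 for Fbxw24, without order along the span. Fbxw24 was followed in DMSO means by Fbxw14, Fbxw28, Fbxw19, Fbxw18, Fbxw16 and Fbxw15, at 210 ± 73.3, 189 ± 62.4, 165 ± 34.8, 137 ± 31.1, 123 ± 33.2 and 114 ± 34.2 FPKM (SD, n = 4), and from Fbxw14 on each was within the spread of its neighbour. Fbxw22, Fbxw20, Fbxw21 and Fbxw26 followed at 68.5 ± 23.5, 50.9 ± 17.7, 40.1 ± 16.0 and 37.0 ± 11.5 FPKM. Fbxw22 lay below Fbxw15 by more than either gene's SD, and from Fbxw20 on each was again within its neighbour's spread. These SDs are over libraries in which the genes moved together. Within each DMSO library Fbxw14 was above Fbxw28, Fbxw19 above Fbxw18, Fbxw16 above Fbxw15 and Fbxw22 above Fbxw20. The order changed between DMSO libraries for Fbxw28 and Fbxw19, Fbxw18 and Fbxw16, Fbxw20 and Fbxw21, and Fbxw21 and Fbxw26.

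**Figure D3:**
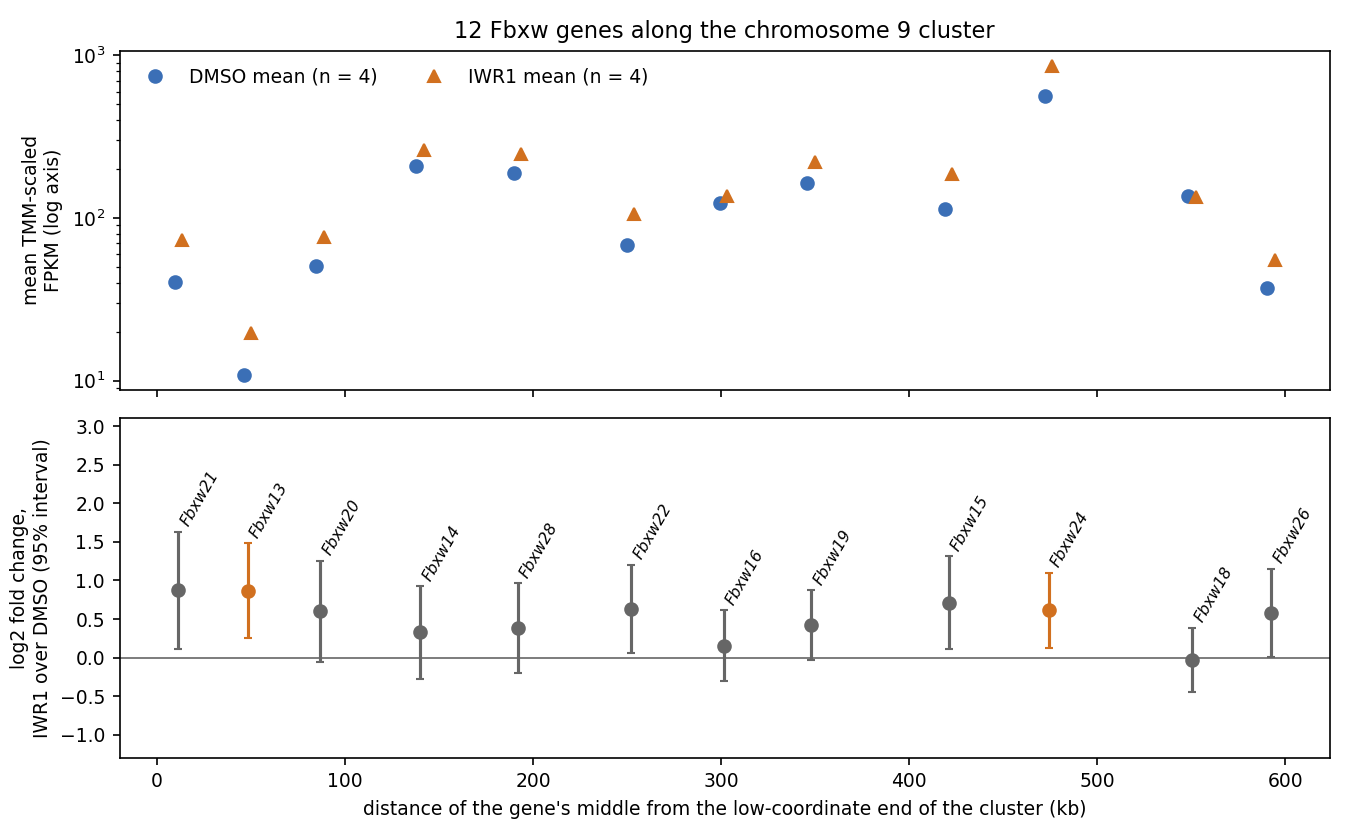
Top: mean TMM-scaled FPKM (log axis) of the 12 cluster genes in DMSO (circles) and IWR1 (triangles), n = 4 libraries each, against the distance of the gene's middle from the low-coordinate end of the cluster in kb. Bottom: log2 fold change, IWR1 over DMSO, with its 95% interval; the called genes Fbxw13 and Fbxw24 are orange. Fbxw24 is the most abundant in both groups, and Fbxw18 is the only estimate below 0.

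The cluster summed to 2228, 1622, 1801 and 1178 FPKM in DMSO libraries 1 to 4 and to 3319, 2303, 1883 and 2013 FPKM in IWR1 libraries 5 to 8. The other 63 genes and Fbxw17 together gave 1871, 1831, 2255 and 1974 FPKM in DMSO and 1301, 1415, 1403 and 1316 FPKM in IWR1. The cluster sums overlapped between the groups, while the sums of the others did not. The cluster therefore made up 54.3%, 47.0%, 44.4% and 37.4% of all F-box FPKM in DMSO, 45.8% ± 7.01 (SD, n = 4), and 71.8%, 61.9%, 57.3% and 60.5% in IWR1, 62.9% ± 6.27. These shares did not overlap. Fbxo15, at a mean of 778 FPKM in DMSO and 229 in IWR1, is among the others. With it left out, the sums of the others overlapped between the groups, and so did the shares. The sum over all 76 genes was 3690 ± 464 FPKM in DMSO and 3738 ± 619 in IWR1.

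The most abundant F-box gene was not the same in the groups, being Fbxo15 in each DMSO library and Fbxw24 in each IWR1 library. Fbxo15, a target of Oct4 used as a marker of pluripotent mouse cells, read 689, 653, 973 and 796 FPKM in DMSO libraries 1 to 4 and 195, 193, 329 and 199 FPKM in IWR1 libraries 5 to 8. Its log2 fold change was -1.77 (SE 0.22, adjusted p = 6.34e-05), the mean going from 778 ± 144 to 229 ± 66.6 FPKM (SD, n = 4 each). The ratio of Fbxw24 to Fbxo15 was 0.981, 0.823, 0.622 and 0.539 in DMSO and 6.22, 4.38, 2.00 and 3.64 in IWR1.

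Genes of high level fell more often than others in this comparison, so the cluster is also set beside genes of its own level. With all tested genes split into 10 equal groups by mean FPKM, the top group (67.85 FPKM and above) had a median log2 fold change of -0.71, and 54.8% of it was called lower and 26.6% higher. The 8 cluster genes in it had a median of 0.40. In the group below it the median was -0.42, and that of its 3 cluster genes was 0.60. No test was made of these differences.

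The other F-box genes divided between rises and falls. Of 57 tested, 10 were called higher and 16 lower, beside 23.3% and 25.4% of all genes, with a median log2 fold change of 0.07 and a range from -2.18 to 2.67. All 4 IWR1 libraries lay above all 4 DMSO libraries in 11 of the 57 and below them in 16, beside 24.4% and 25.1% of all. By family, 1 of 7 Fbxw genes rose and 3 fell, 3 of 32 Fbxo genes rose and 9 fell, and 6 of 18 Fbxl genes rose and 4 fell. Over all 70 tested members 12 were higher and 16 lower. Each of the 16 falls but that of Fbxl18 was called again in all 8 fits that left out 1 library, 15 of 16, against 6 of the 12 rises (Fbxl17, Fbxl21, Fbxl6, Fbxl7, Fbxo30 and Fbxw4). The shares kept among all called genes are not given here.

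**Figure D4:**
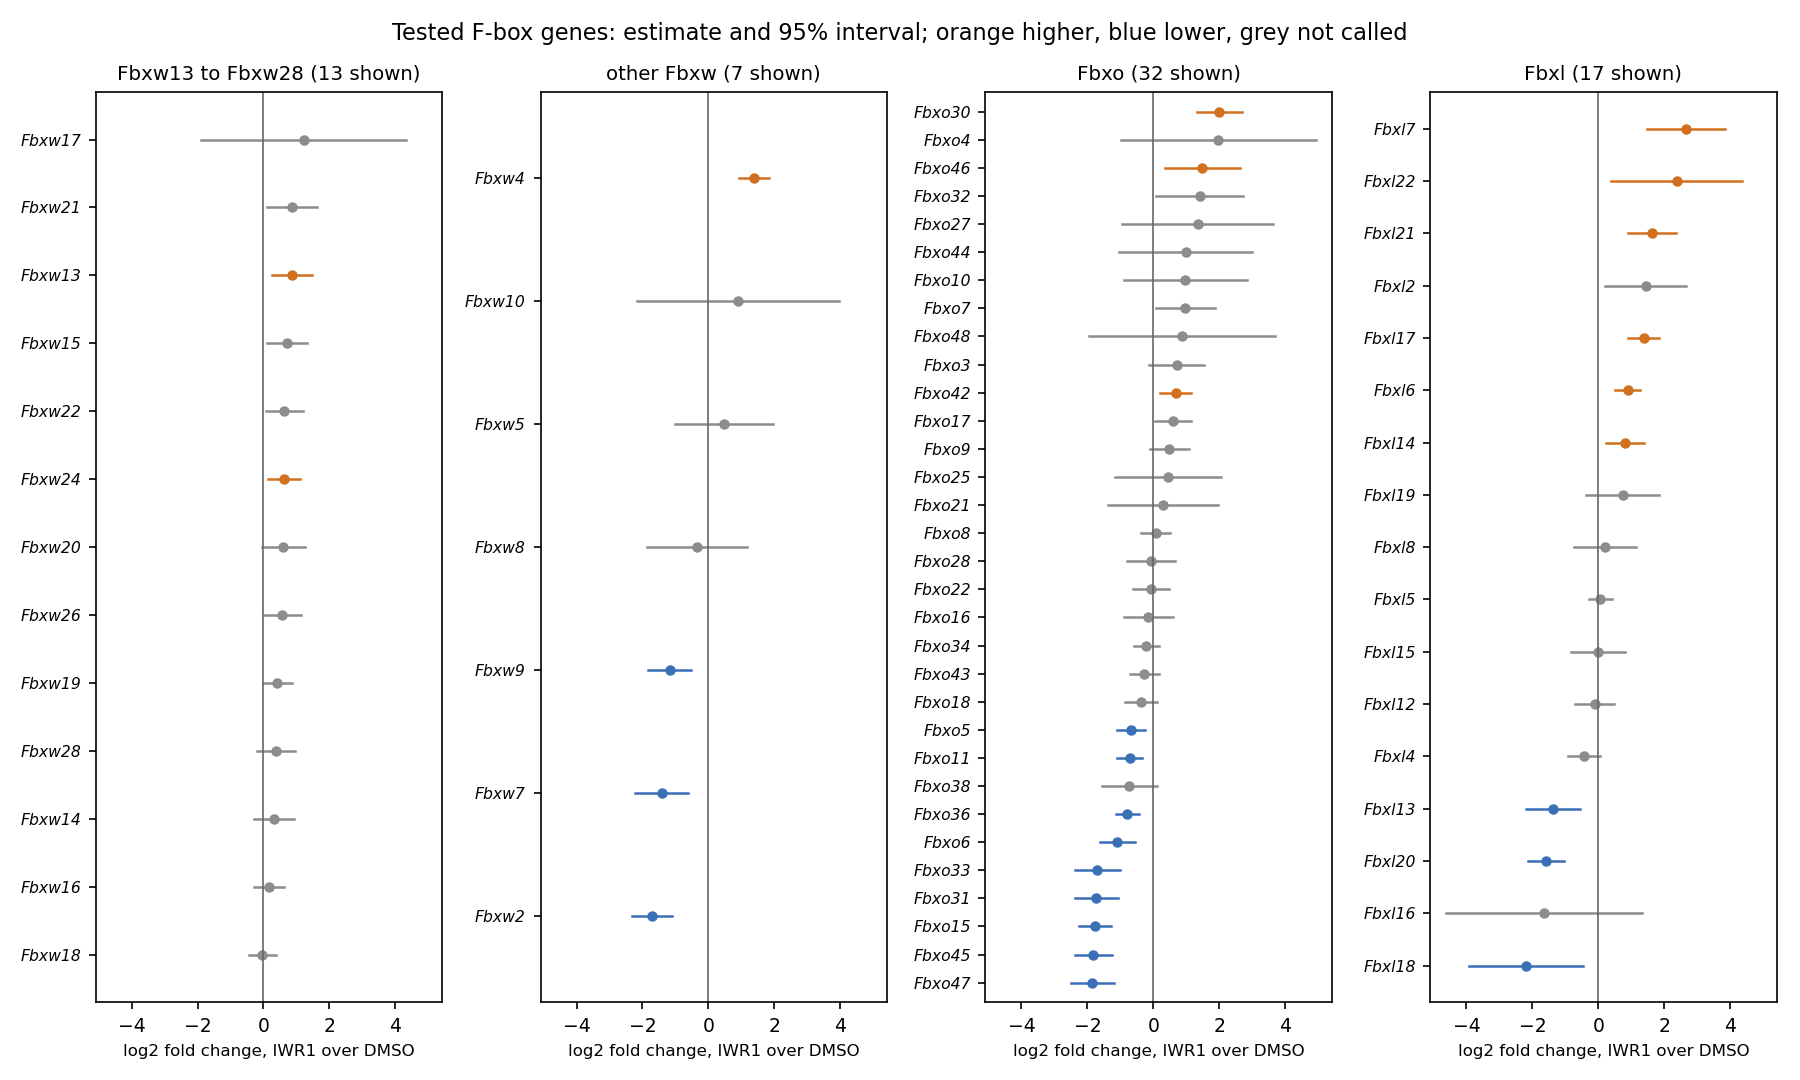
Log2 fold change, IWR1 over DMSO, of the 70 tested F-box genes with 95% intervals, by family: 13 genes numbered between Fbxw13 and Fbxw28, 7 other Fbxw, 32 Fbxo and 18 Fbxl, of which 1 is not drawn. Orange genes were called higher (12), blue ones lower (15 of the 16 are drawn), grey ones neither; the oocyte-type estimates span -0.03 to 1.22, the others -2.18 to 2.67.

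Some genes were named for a role in meiosis or the cell cycle. Of these, Fbxo5, Fbxw7 and Fbxo47 fell, Fbxo30 rose, and Fbxo43 and Fbxo34 did not pass the test. Over all genes 23.3% rose and 25.4% fell. Fbxo31 (-1.72) and Fbxl7 (2.67), whose proteins also act on cell cycle factors, were named for the size of their changes. Fbxo5, of which a promoter stretch is shown above, encodes Emi1, an inhibitor of the anaphase-promoting complex, and read 133, 163, 151 and 182 FPKM in DMSO and 67.1, 100, 104 and 121 FPKM in IWR1. The groups did not overlap, and the log2 fold change was -0.68 (SE 0.20, adjusted p = 0.0139). The call was lost with library totals as the only scaling (adjusted p = 0.0704), with genes of at least 5 FPKM only (0.0503), in the shallower libraries alone (0.106), in the deeper ones alone (0.0844) and without DMSO library 4 and IWR1 library 5 (0.0523).

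Its relative Fbxo43 encodes Emi2, which holds the mature egg in metaphase of the second meiotic division. It read 11.6, 11.1, 10.0 and 10.5 FPKM in DMSO and 8.94, 10.3, 10.5 and 6.23 FPKM in IWR1, with overlapping groups and a log2 fold change of -0.27 (interval from -0.72 to 0.19, adjusted p = 0.31). Fbxo34 read 23.7, 30.7, 28.6 and 33.7 FPKM in DMSO and 26.3, 27.6, 24.7 and 22.1 FPKM in IWR1, a log2 fold change of -0.21 (interval from -0.59 to 0.16). Whether Fbxo5 and Fbxo43 differ in their response was not tested.

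Fbxw7, which recognises cyclin E and Myc for degradation, read 2.07, 1.58, 3.08 and 3.65 FPKM in DMSO and 0.959, 0.639, 1.04 and 1.26 FPKM in IWR1. Every IWR1 value was below every DMSO value (log2 fold change -1.42, SE 0.37, adjusted p = 0.00694). Fbxo31, whose human protein acts on cyclin D1, read 5.80, 8.58, 5.45 and 8.60 FPKM in DMSO and 1.28, 2.72, 2.63 and 1.96 FPKM in IWR1, again without overlap (-1.72, SE 0.30, adjusted p = 0.000486).

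Fbxo47, a gene needed for meiotic prophase in male mice, had 50.9, 63.1, 57.2 and 65.8 FPKM in DMSO libraries 1 to 4 and 11.8, 11.3, 29.1 and 13.4 FPKM in IWR1 libraries 5 to 8. IWR1 library 7 was high among the IWR1 libraries but below every DMSO library, and the mean fell from 59.3 ± 6.62 to 16.4 ± 8.49 FPKM (SD, n = 4 each; log2 fold change -1.86, SE 0.30, adjusted p = 0.000301). The same library was the high one for Fbxo15.

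Fbxo30 rose from 2.64, 4.82, 2.04 and 1.73 FPKM in DMSO libraries 1 to 4 to 11.6, 11.8, 8.52 and 12.97 FPKM in IWR1 libraries 5 to 8. The groups were well apart, and the log2 fold change was 2.00 (SE 0.32, adjusted p = 0.000258). Its call held in all 17 other fits, with log2 fold changes from 1.45 to 2.71. The protein is known in mouse for acting on the mitotic kinesin Eg5.

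Fbxw4, the gene disrupted in the dactylaplasia limb mutants of mouse, was the most abundant of the genes outside the oocyte-type class that rose. It read 144, 131, 158 and 87.8 FPKM in DMSO and 353, 411, 268 and 323 FPKM in IWR1. The lowest IWR1 value was above the highest DMSO value, and the mean rose from 130.1 ± 30.3 to 339 ± 59.5 FPKM (SD, n = 4 each; log2 fold change 1.38, SE 0.21, adjusted p = 0.000234). Its call also held in all 17 other fits.

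Fbxl21, whose protein binds the cryptochromes of the circadian clock, rose from 2.64, 2.60, 1.95 and 3.67 FPKM in DMSO to 10.8, 10.6, 5.79 and 6.26 FPKM in IWR1 (log2 fold change 1.62, SE 0.33, adjusted p = 0.00164). Its groups did not overlap. Fbxl21 overlaps the counted gene Lect2, and with the 4 deeper libraries alone its adjusted p was 0.0620.

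The largest rises were at low levels. Fbxl7, whose human protein acts on Aurora A kinase, read 0.196, 0.246, 0.741 and 0.168 FPKM in DMSO and 2.05, 1.30, 3.02 and 2.34 FPKM in IWR1, a log2 fold change of 2.67 (SE 0.54, adjusted p = 0.00156). DMSO library 3 was high within its group and still below every IWR1 library, and with the 4 deeper libraries alone the adjusted p was 0.127. Fbxl22, known from the sarcomere of heart muscle, read 0.0153, 0.0917, 0.0979 and 0.0620 FPKM in DMSO and 0.424, 0.552, 0.219 and 0.232 FPKM in IWR1 (2.38, SE 0.92, adjusted p = 0.0477). That call was lost whichever library was left out, with adjusted p from 0.0635 to 0.136, and its position overlaps that of Herc1.

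Fbxo46 read 0.305, 0.470, 0.520 and 0.756 FPKM in DMSO and 2.03, 1.41, 1.19 and 1.14 FPKM in IWR1 (log2 fold change 1.48, SE 0.52, adjusted p = 0.0332). The groups did not overlap, but without DMSO library 1, 2 or 3 or IWR1 library 5 or 6 its adjusted p was between 0.0572 and 0.0975. The other 4 rises were Fbxl17, which takes apart faulty dimers of BTB proteins, at 1.37 (adjusted p = 0.000293), Fbxl6 at 0.90 (0.00113), Fbxl14 at 0.81 (0.0240) and Fbxo42 at 0.67 (0.0201). Fbxl14 and Fbxo42 were not called in all fits that left out 1 library.

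Fbxo45, which works with the large ligase subunit Mycbp2 in neurons, read 27.3, 20.6, 29.1 and 27.5 FPKM in DMSO and 3.97, 7.37, 8.55 and 9.67 FPKM in IWR1. The groups were well apart (log2 fold change -1.82, SE 0.26, adjusted p = 0.000143). Fbxl20, known at mouse synapses as Scrapper, fell from 13.9 ± 4.35 to 4.62 ± 1.06 FPKM (SD, n = 4 each; -1.59, adjusted p = 0.000269).

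Fbxw2, whose human protein acts on the placental factor GCM1, read 10.1, 14.4, 10.3 and 15.8 FPKM in DMSO and 2.07, 4.98, 4.48 and 3.86 FPKM in IWR1 (log2 fold change -1.72, SE 0.28, adjusted p = 0.000351). Every IWR1 library was below every DMSO library. Fbxl18 had the largest estimated fall and the least certain, from 0.575, 1.31, 0.476 and 1.84 FPKM in DMSO to 0.432, 0.305, 0.0961 and 0.0955 FPKM in IWR1 (-2.18, SE 0.80, adjusted p = 0.0382). With DMSO library 2 or 4, or IWR1 library 6, 7 or 8, left out, its adjusted p was 0.0590 to 0.134.

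**Figure D5:**
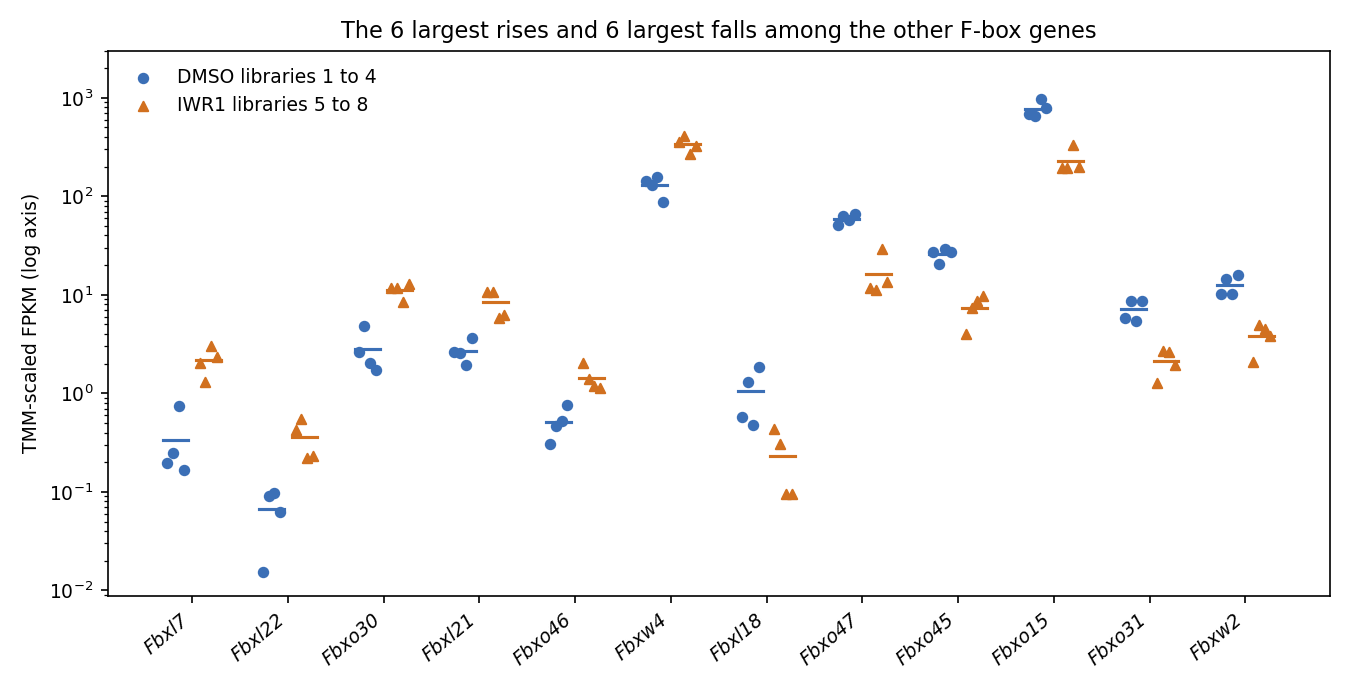
TMM-scaled FPKM (log axis) of the 6 largest rises (left) and the 6 largest falls (right) among the other F-box genes in 4 DMSO libraries (circles) and 4 IWR1 libraries (triangles), with a bar at each group's mean. The groups do not overlap in any of the 12 genes, which was part of how they were picked; Fbxl22 and Fbxl18 reach below 0.1 FPKM.

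A further 6 falls ran from -1.69 to -0.71 on the log2 scale and had no overlap between the groups. They were Fbxo33 (-1.69), Fbxl13 (-1.37), Fbxw9 (-1.17), Fbxo6 (-1.09), which binds misfolded glycoproteins, Fbxo36 (-0.78) and Fbxo11 (-0.71), whose human protein acts on BCL6. Fbxo36 was the most even of them, at 231, 197, 195 and 200 FPKM in DMSO and 121, 126, 125 and 107 FPKM in IWR1 (SE 0.15, adjusted p = 0.00125). Fbxo33 went from 65.0, 61.3, 115 and 124 FPKM in DMSO to 20.3, 17.9, 39.9 and 35.0 FPKM in IWR1 (adjusted p = 0.000823).

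Of the 31 other genes that did not pass the test, the most evenly measured near 0 was Fbxl5, the iron sensor that acts on Irp2. It read 34.7, 43.5, 45.2 and 38.5 FPKM in DMSO and 39.8, 45.0, 42.7 and 41.9 FPKM in IWR1, with an interval from -0.28 to 0.41. Fbxo8, at 133 ± 33.1 and 140 ± 13.3 FPKM (SD, n = 4 each), had an interval from -0.37 to 0.51. Wide intervals were found at low levels, such as -0.98 to 4.93 for Fbxo4 and -4.61 to 1.33 for Fbxl16. Fbxl2 (log2 fold change 1.44, adjusted p = 0.0506) was the only gene of the 57 whose IWR1 libraries all lay above DMSO without a call.

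The libraries fall into 4 of lower depth (DMSO 1 and 2, IWR1 5 and 7) and 4 of higher depth, 2 of each group. In the shallower libraries alone 5 members were called higher and 6 lower, 0 of them oocyte-type, beside 12.7% and 13.9% of all genes. In the deeper ones alone 7 were called higher, of which 1 was oocyte-type (Fbxw13), and 11 lower, beside 12.9% and 17.5% of all genes. Called at both depths were 3 of the 12 rises (Fbxl17, Fbxo30 and Fbxw4) and 6 of the 16 falls (Fbxl20, Fbxo15, Fbxo31, Fbxo45, Fbxo47 and Fbxw2), without a share over all called genes to set beside them. The oocyte-type median was 0.46 in the shallower and 0.69 in the deeper libraries.

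Of 33 tested genes of a list of SCF core and regulators, 6 rose and 18 fell, with a median log2 fold change of -0.54, beside 23.3% and 25.4% of all genes. In the top of the 10 groups of genes by level, where many of these lie, 26.6% were higher and 54.8% lower. With genes of at least 5 FPKM only, a fit that also rescaled the libraries, the list gave 10 higher and 9 lower. Beside these stand 34.8% and 37% of all genes. Cul1, the cullin scaffold, rose from 324, 295, 285 and 178 FPKM in DMSO to 701, 574, 438 and 571 FPKM in IWR1 (1.08, SE 0.22, adjusted p = 0.00154). Rbx1, the RING subunit that carries the ubiquitin-charged enzyme, fell from 567, 473, 571 and 597 FPKM in DMSO to 309, 238, 179 and 140 FPKM in IWR1 (-1.35, SE 0.23, adjusted p = 0.000505). Both genes had groups that did not overlap.

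Skp1a, the adaptor that holds the F-box, read 590, 680, 662 and 430 FPKM in DMSO and 1171, 868, 711 and 687 FPKM in IWR1 (log2 fold change 0.54, adjusted p = 0.0568). Although every IWR1 library was above every DMSO library, it did not pass the test. Rnf7, the RING protein related to Rbx1, fell from 764 ± 189.8 to 155 ± 48.8 FPKM (-2.30, adjusted p = 3.21e-05). Sugt1, a co-chaperone that binds Skp1, fell from 1009 ± 195 to 272 ± 64.5 FPKM (SD, n = 4 each; -1.89, adjusted p = 3.88e-05).

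Of 10 genes for Nedd8 and its conjugation to cullins 3 rose, 3 fell and 4 did not pass the test. Of 9 subunits of the COP9 signalosome, which removes Nedd8, 0 rose and 7 fell. Over all genes 23.3% rose and 25.4% fell. The COP9 subunits lie in the upper groups of genes by level, where 41.4% to 54.8% of all genes were called lower. Nedd8 itself fell by 0.75 on the log2 scale (adjusted p = 0.00599), and Cand1, which exchanges F-box subunits, fell by 1.23 (0.000232). Cops6, a COP9 subunit, fell from 347, 304, 415 and 438 FPKM in DMSO to 58.3, 66.1, 65.3 and 62.1 FPKM in IWR1 (-2.58, SE 0.18, adjusted p = 5.77e-06). The other rises of the SCF list were Cdc34 (1.14), Dcun1d4 (1.64), Dcun1d5 (0.79), Ube2f (1.52) and Usp15 (1.03).

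F-box genes that carry other symbols fell in 5 of 7 cases tested, with 1 rise and a median log2 fold change of -1.13, beside 25.4% lower and 23.3% higher of all genes. The falls numbered 1 in the shallower libraries alone and 3 in the deeper ones, beside 13.9% and 17.5% of all genes. Btrc, which recognises phosphorylated β-catenin, fell from 6.07, 7.79, 8.19 and 11.2 FPKM in DMSO to 3.02, 4.53, 2.62 and 2.58 FPKM in IWR1 (-1.38, SE 0.26, adjusted p = 0.000874). Ccnf, or cyclin F, fell by 1.35 on the log2 scale (adjusted p = 0.000618), and Skp2, Kdm2a and Kdm2b were the other falls. Tmem183a rose from 19.2 ± 2.93 to 43.0 ± 7.77 FPKM (SD, n = 4 each; 1.17, adjusted p = 0.000371).

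The authors' ATAC-seq lists hold 2345 regions more open and 1400 less open in IWR1, with no value per library. Within 10 kb of a gene boundary, 9 of the 76 genes had a region more open in IWR1, beside 10.5% of 23973 genes with a position, and 4 had one less open, beside 3.24%. Fbxo9 had both kinds. None of the 13 oocyte-type genes was among them: the nearest more open region was 43.4 kb from a cluster gene, Fbxw21, and the nearest less open one 534.7 kb away. Such a list does not show whether the cluster's chromatin was open.

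Of the genes with a nearby region, 5 were called in RNA-seq, beside 23.3% higher and 25.4% lower of all genes tested. Fbxl22, on chromosome 9, rose and had a more open region at 66511114 to 66512950, inside the gene's span and 1.64 kb from its boundary. Fbxo15 fell and had a less open region 6.11 kb from its boundary. Fbxo6 fell and had a less open region 9.96 kb away. Fbxo36, whose boundary on chromosome 1 lies in a more open region at 84838910 to 84840836, fell, as did Fbxo47, with a more open region 8.60 kb away. The direction of the region and of the RNA was the same in 3 of the 5 and opposite in 2, and a link between them was not tested. Fbxl15, Fbxl19, Fbxl8, Fbxo10, Fbxo27, Fbxo9 and Fbxw10 had a nearby region and no call.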

How the data were processed

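The authors deposited a table of raw counts per gene for 8 RNA-seq libraries, without normalization per the file headers, together with a gene length, FPKM values and their DESeq2 comparison (log2 fold changes and p-values). The labels' protocols name the SMART-Seq v4 kit. The submitters' processing notes name the build mm10 and, among the tools, featureCounts 1.5.0-p1, STAR 2.5.1b, cutadapt 1.11 and DESeq2, with no role or order. Strandedness and the handling of reads matching several genes are not stated there. The ATAC-seq lists, as the authors deposited them, give regions only.

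Here FPKM values were computed from counts, lengths and TMM-scaled totals; without TMM they differed from the deposited DMSO FPKM values by at most 2.62e-10. Genes passing filterByExpr were tested with edgeR 4.0.16 (quasi-likelihood, treatment only, two-sided, Benjamini-Hochberg over 14994 genes, threshold 0.05; R 4.3.3), after the script was tested on simulated data. The standard error is the log2 fold change divided by the square root of F, and intervals are at 95%. Counting intervals do not enter, and depth bears through the counts. The IWR1 columns, numbered 5 to 8, were assigned to the group, since the labels number those samples 1 to 4; 12 other per-library columns were not used. Whether collections shared a day is not stated, so p-values measure the spread between these libraries. Gene positions came from a RefSeq table (GRCm38.p6, the build also called mm10) matched by gene ID for 76 of 76 members. Promoter windows were aligned globally with Biopython 1.88. Alternatives were DESeq2 1.42.0, other scalings, other filters, left-out libraries and depth groups. Fits with another filter also computed TMM anew on the genes kept.

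The members, gene lists and tests were chosen with earlier results of these data known. Named genes were the tested Fbxw13 to Fbxw28; the 6 largest rises and 6 largest falls among other called members whose groups did not overlap; Fbxo5, Fbxo43, Fbxw7, Fbxo15, Fbxo30, Fbxo34 and Fbxo47; and up to 3 genes of each SCF list by adjusted p, with Skp1a, Cul1 and Rbx1. Further genes, named where a small count needed them, were picked with their values known. A member is counted but not reported here by name.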

Additional observations from a re-analysis of the deposited data

Results flagged for a closer look

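In 76 groups of 4 libraries, 3 held a library whose gap to the nearest other, divided by the group's range, was above 0.829; chance alone gives about 1 in 20 such groups. For Fbxl7 in DMSO the ratio was 0.865, with library 3 at 0.741 FPKM and the others at 0.168 to 0.246 FPKM. For Fbxo47 in IWR1 it was 0.88, with library 7 at 29.1 FPKM and the others at 11.3 to 13.4 FPKM. For Fbxo15 in IWR1 it was 0.958, again with library 7, at 329 FPKM, and the others at 193 to 199 FPKM. In all 3 genes the library that stood apart lay toward the other group without reaching it, and the call was kept when it was left out.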

How the results depend on the processing

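Over 639 refits of named genes, 539 kept direction and side of the threshold, 54 lost a call, 34 gained one and 12 turned sign. Members called higher (12) numbered 20 with library totals alone, 20 by DESeq2, 5 and 7 in the shallower and deeper libraries alone, 6 without DMSO library 4 and IWR1 library 5 (chosen after seeing the data) and 7 to 15 with 1 library left out. Among all genes 3494 of 14994 were called higher in the main fit and 4056 of 14994 with totals alone. The share was 27.5% by DESeq2 and 12.7% and 12.9% by depth. It was 2891 of 15116 genes without both libraries, and 2940 to 3450 genes were called higher with 1 left out. Members called lower (16) numbered 6 in the shallower libraries and 15 to 16 with 1 left out. Beside these, 13.9% of all genes were called lower in the shallower libraries and 3438 to 3676 genes with 1 left out. Oocyte-type genes called higher (2) numbered 5 with DESeq2-type size factors, 7 with totals, 1 with median-centred libraries, 6 by DESeq2 and 4 with no count filter. Among all genes these fits called 3677, 4056, 3312 and 4114 higher, and 3628 of 20080 with no count filter. With genes of at least 5 FPKM, a fit that also rescaled the libraries, 8 of 12 oocyte-type genes were called higher, beside 34.8% of all genes. Oocyte-type genes called higher numbered 0 and 1 by depth, 0 without both libraries and 0 to 5 with 1 left out, settings whose values for all genes are given above. Their median stayed between 0.24 and 0.81, beside medians of all genes from -0.02 to 0.34. Other members called higher (10) numbered 5 and 6 by depth, 6 without both libraries and 6 to 11 with 1 left out, and called lower (16) 6 in the shallower libraries and 15 to 16 with 1 left out. Their median of 0.07 became 0.25 with totals, where the median of all genes was 0.34, and -0.14 without both libraries. The SCF core list (6 higher, 18 lower) gave 10 and 9 with genes of at least 5 FPKM, beside 34.8% and 37% of all genes. It gave 3 and 10 in the shallower libraries, beside 12.7% and 13.9%. Other-symbol F-box genes higher (1) numbered 2 with size factors, totals, DESeq2 or the 5 FPKM filter, and lower (5) 3 with that filter, 1 in the shallower and 3 in the deeper libraries. Regions within 50 kb touched 26 and 14 members (more and less open), and less open ones within 1 kb touched 0. Fbxw18 turned to 0.0175 with size factors and by DESeq2, 0.145 with totals, 0.201 with the 5 FPKM filter, 0.0093 in the shallower libraries, and lay between -0.132 and 0.0841 with 1 left out (above 0 without DMSO library 1, DMSO library 3 or IWR1 library 6). Fbxo34 turned to 0.0215 with the 5 FPKM filter. Without both libraries Fbxw14, Fbxw16 and Fbxw28 turned to -0.0876, -0.078 and -0.0166. The cause of these shifts was not tested. No paired analysis was possible because the IWR1 columns carry no replicate number of the labels. Genes of low level rest on few counts. The interval of Fbxw17, whose counts differed between libraries of the same group, spans both directions, and the cause was not tested.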

Other observations

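The 6 F-box genes with too few counts to enter the test were Fbxl12os, Fbxo2, Fbxo24, Fbxo39, Fbxo40 and Fbxo41. Fbxo39 had no count in any library. Fbxo40, a muscle gene that acts on the insulin receptor substrate, had 0 counts in each DMSO library and 49, 18, 2 and 6 counts in IWR1 libraries 5 to 8. Set against a floor of 3 counts over the DMSO group and scaled for library size, the pooled IWR1 counts of Fbxo40 were 29.04-fold higher. Most of these counts were in library 5. The value does not take in the spread between the IWR1 libraries and is no lower bound for them. Fbxo2 had 10, 11, 4 and 0 counts in DMSO and 2, 0, 4 and 0 in IWR1, with overlapping groups.

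In the authors' deposited table, with an adjusted p under 0.05, 5 of the oocyte-type genes were higher and 0 lower, and 15 of the other members were higher and 16 lower. The share of all genes in that comparison is not given here. In the DESeq2 fit made here, 27.5% of all genes were higher and 26.1% lower.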
